A study of Mus musculus with 60 samples.

Results

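The effect of a vitamin B6 (VB6) lacking diet on the prefrontal cortex of Glo1 knockout (KO) mice was described from 10 RNA-seq libraries: the 5 KO libraries of mice fed the VB6-lacking diet and the 5 of KO mice fed the normal diet. They were chosen by their genotype, diet and tissue labels, out of 60 libraries made from 3 brain regions (prefrontal cortex, striatum, hippocampus) of 20 mice. The normal diet held 1.4 mg of VB6 per 100 g and the lacking diet 5 µg per 100 g, and both were given from 8 to 12 weeks of age. All 10 mice lacked Glo1, so the diet was the only labelled difference between these groups, and all 10 libraries carried the same batch number (1). The 10 wild-type (WT) prefrontal libraries, 5 per diet, all carried batch number 2, so a difference between KO and WT and a difference between those batches cannot be told apart. Strain, sex and the way in which Glo1 was disrupted were not given in the sources used here. Each mouse gave 1 library per region, and mice are called here by the numbers in their labels: 242, 244, 325, 339 and 452 ate the lacking diet, and 267, 268, 368, 381 and 390 the normal one.

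Glo1 encodes glyoxalase I, which clears methylglyoxal, a reactive by-product of glycolysis that modifies proteins. The active form of VB6, pyridoxal phosphate (PLP), is the cofactor of decarboxylases, aminotransferases and other enzymes that make and break down amino acids and neurotransmitters, among them the glutamate decarboxylases that make GABA. Another form, pyridoxamine, can trap reactive carbonyl compounds such as methylglyoxal. The comparison asks what a shortage of VB6 changes in the cortical transcriptome of mice that already lack this detoxifying enzyme.

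The diet was visible in the mice. VB6 was 4.55, 5.63, 2.40, 2.25 and 3.78 ng/µl in mice 242, 244, 325, 339 and 452, and 60.09, 66.71, 70.09, 78.09 and 60.55 ng/µl in mice 267, 268, 368, 381 and 390. The groups were far apart, at 3.72 ± 1.44 against 67.1 ± 7.45 ng/µl (SD, n = 5), and the two-sided exact permutation p of 0.00794 was the smallest that the splits of 10 mice allow. Whether VB6 was measured in blood or tissue is not stated in the labels. Glo1 had between 0 and 9 counts in the 10 KO prefrontal libraries, where WT prefrontal libraries held 342 to 493, so every library was in keeping with its genotype label.

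Totals of the 10 libraries ran from 9578705 to 13911503 counts and RNA integrity numbers (RIN) from 7.6 to 8.9. Mean RIN was 8.54 ± 0.44 on the lacking and 8.38 ± 0.56 on the normal diet (SD, n = 5; two-sided exact permutation p 0.722 for RIN and 0.849 for totals, both 0.849 when adjusted over the pair). Cortical markers matched the tissue label: Slc17a7, the vesicular glutamate transporter of cortical neurons, was at 544 to 789 counts scaled by library size (CPM) against 20.6 to 175 in striatum, and the striatal dopamine receptor gene Drd1 at 15.4 to 24.9 against 437 to 614. Library 339, on the lacking diet, stood apart. It held 312 genes more than 2-fold from their median over the other 9 libraries, where each of the others held 14 to 45 by the same measure. It had 14496 genes with a count (15286 to 15578 in the others) and 231 genes with a single count (486 to 708). On the first axis of a multidimensional scaling plot it lay at 1.43, with the other 9 between -0.24 and -0.03. The counts over all genes are therefore also given without it.

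No single gene passed the threshold for diet in KO prefrontal cortex. Of 13223 genes tested with edgeR, 0 (0%) had a Benjamini-Hochberg adjusted p under 0.05, and the lowest adjusted p was 0.911. The number of genes with an unadjusted p under 0.05 was 686, or 5.19% of those tested, where uniform p-values would give 661. In WT the same fit gave 300, so 661 is not a measured chance level for these libraries. Of the 686, 376 (2.84%) had higher and 310 (2.34%) lower values on the lacking diet. DESeq2 also called 0 genes, with a lowest adjusted p of 0.330 and 709 genes at an unadjusted p under 0.05. Limma on log2 RPKM called 0, with 639. Leaving out 1 library moved the count at an unadjusted p under 0.05 to both sides of the 661 expected, from 388 (without 268) to 941 (without 368), and it was 433 without 339.

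The biological coefficient of variation between replicates was 11.2% and the median standard error of a log2 fold change 0.12, and the 95% interval lay within 1.5-fold in either direction for 10501 genes, 79.4% of those tested. In simulated counts each gene was drawn on its own, with its mean and spread over the 20 prefrontal libraries and their depths. Over 13146 genes, edgeR recovered 8 of 50 changed 1.25-fold, 37 of 50 changed 1.5-fold, 42 of 50 changed 2-fold and all 50 changed 4-fold. With no change simulated it made 0 calls. Shifts shared by many genes of a library were not simulated, so these rates hold for that simpler setting only.

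**Figure D1:**
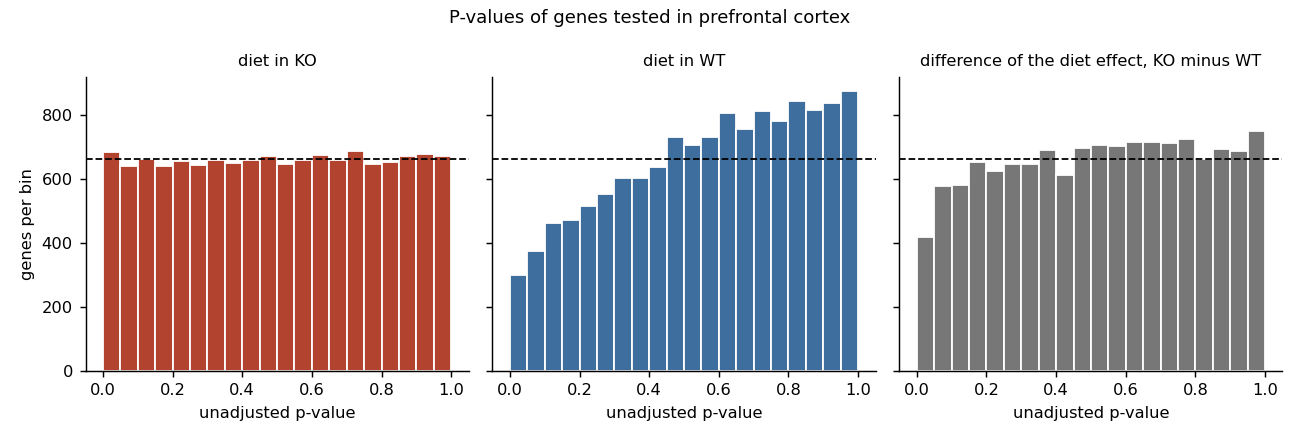
Unadjusted edgeR p-values (x axis) of the 13223 genes tested in prefrontal cortex, as the number of genes (y axis) in 20 equal bins, for diet in KO, diet in WT and the difference between them. The dashed line marks 661 genes, the height of every bin if p-values were uniform. The first bin holds 686 genes in KO, 300 in WT and 419 for the difference. The last bin holds 673, 875 and 751, so p-values of WT and of the difference were not uniform. The line is thus not a measured chance level for these libraries.

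In WT prefrontal cortex the same diet gave 0 genes past the threshold and 300 (2.27%) at an unadjusted p under 0.05, and the direct test of the difference between the KO and WT effects gave 0 and 419 (3.17%; 384 without 339). The lowest adjusted p of the difference was 0.99964. Both unadjusted counts were below the 661 of uniform p-values. The 686 in KO against 300 in WT is therefore no measure of a difference in effect. DESeq2 gave 0 genes for both, with 312 for WT and 436 for the difference at an unadjusted p under 0.05. The lowest DESeq2 adjusted p was 0.9999 for WT and 0.763 for the difference. Within KO mice, the difference of the diet effect between prefrontal cortex and striatum reached the threshold for 0 of 13930 genes, with 259 (1.86%) at an unadjusted p under 0.05. Against hippocampus it was 0, with 862 (6.19%). Without mouse 339 these counts were 254 and 561. The striatum count was 450 without mouse 381, and the hippocampus count went from 463 (without 268) to 1396 when only the 20 KO libraries of both regions were fitted, where the lowest adjusted p was 0.174.

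The KO libraries of the 2 diets did not overlap for 101 genes, 0.764% of those tested: 63 (0.476%) higher on the lacking diet and 38 (0.287%) lower. For any 1 gene, such a separation is a two-sided exact permutation p of 0.00794, and the share of genes that reached it was no larger than that p itself gives. In WT, 48 genes (0.363%) were separated. Without 339, where 4 libraries face 5 and separation is easier, the KO count was 153. From the KO genes with a mean of at least 1 CPM, the 12 higher and the 12 lower with the smallest p are described, all with an adjusted p of 0.911. CPM here are scaled by TMM factors, which correct for differences in library composition.

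Of the 12 higher genes, Pla2g4e had the smallest p. Pla2g4e, a cytosolic phospholipase A2 gene on chromosome 2 (GRCm38, 120166412 to 120245335), was at 6.59, 7.49, 8.80, 5.72 and 5.78 CPM in libraries 242, 244, 325, 339 and 452, and at 4.25, 4.56, 4.43, 4.81 and 4.06 CPM in 267, 268, 368, 381 and 390. All 5 lacking libraries lay above all 5 normal ones, with a log2 fold change of 0.63 (SE 0.15) and an unadjusted p of 0.000265. In WT its log2 fold change was 0.04. Casp12, a caspase gene linked to stress of the endoplasmic reticulum, had the largest log2 fold change of the 12, 0.99 (SE 0.30), at low levels: 1.24, 1.38, 1.90, 1.20 and 2.12 CPM against 0.772, 0.434, 1.05, 1.13 and 0.580 CPM. Its 2 nearest libraries, 339 and 381, were only 1.20 and 1.13 CPM. Fancm, a DNA helicase gene of the Fanconi anaemia repair pathway, was at 24.5 ± 1.48 against 18.8 ± 1.34 CPM (SD, n = 5), a log2 fold change of 0.38, and at -0.23 in WT.

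Tet2, which oxidizes methylated cytosine, was at 145 ± 18.2 against 117 ± 4.75 CPM (SD, n = 5), a log2 fold change of 0.32. Pabpn1, whose product binds poly(A) tails in the nucleus, had a log2 fold change of 0.39. The annotation puts 21.5% of the Pabpn1 exon bases on another gene, Gm20521, so reads of the pair may be split between them, and for Ece2 (0.48), a gene of an endothelin-converting enzyme, that share was 57.5%, with Gm49333. The other higher genes were Cep135, a centriole gene (0.35), Strada, which encodes a partner of the kinase LKB1 (0.38), Rbm33 (0.22), Trank1 (0.32), Ddx26b (0.38) and Dopey1 (0.26). Their direction was the same in WT for 4 of the 12, in KO striatum for 8 and in KO hippocampus for 4.

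Among the 12 lower genes, the largest difference was in Icam1, an adhesion molecule gene on chromosome 9 (GRCm38, 21015985 to 21028817) that endothelial cells and microglia can induce. It was at 0.620, 0.493, 0.725, 0.768 and 0.585 CPM on the lacking diet and at 3.71, 1.95, 1.28, 1.43 and 1.06 CPM on the normal diet. The groups did not overlap, but library 267 held the highest value by far and the highest lacking library (0.768) was close to the lowest normal one (1.06). The log2 fold change was -1.57 (SE 0.41, unadjusted p 0.000601). Another gene, Gm47079, lies opposite 11.7% of its exon bases. Its log2 fold change was -0.80 in WT, -1.41 in KO striatum and -0.81 in KO hippocampus. Calr, the gene of calreticulin, a calcium-binding chaperone of the endoplasmic reticulum, was far more precisely measured: 387, 416, 386, 404 and 428 CPM against 470, 511, 430, 435 and 457 CPM, with 428 and 430 the nearest values. Its log2 fold change was -0.19 in KO (SE 0.06) and -0.16 in WT.

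Sqrdl, whose product oxidizes hydrogen sulfide in mitochondria, was at 1.93 ± 0.279 against 3.31 ± 0.569 CPM (SD, n = 5; log2 fold change -0.77). Gsto1, a glutathione transferase gene, was at 14.1 ± 2.65 against 18.4 ± 0.895 CPM (-0.38), with library 339 the lowest at 9.48 CPM. Sdhaf4, an assembly factor of succinate dehydrogenase, was at 5.95 ± 0.651 against 8.04 ± 1.10 CPM (-0.44). A gene on the other strand, Gm26524, covers 12.7% of its exon bases, and whether the counting used strand was not given in the sources used here. B630019K06Rik had the tightest groups, 22.0 to 23.7 against 26.5 to 27.6 CPM (-0.25). The rest were Map3k6 (-0.61), Cdpf1 (-0.63), Hmg20b (-0.45), Lrrtm1, a synaptic adhesion gene (-0.27), Kctd21 (-0.27) and Borcs5, a gene of lysosome positioning (-0.27). Of these 12 genes, 10 had the same direction in WT, 8 in KO striatum and 8 in KO hippocampus.

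**Figure D2:**
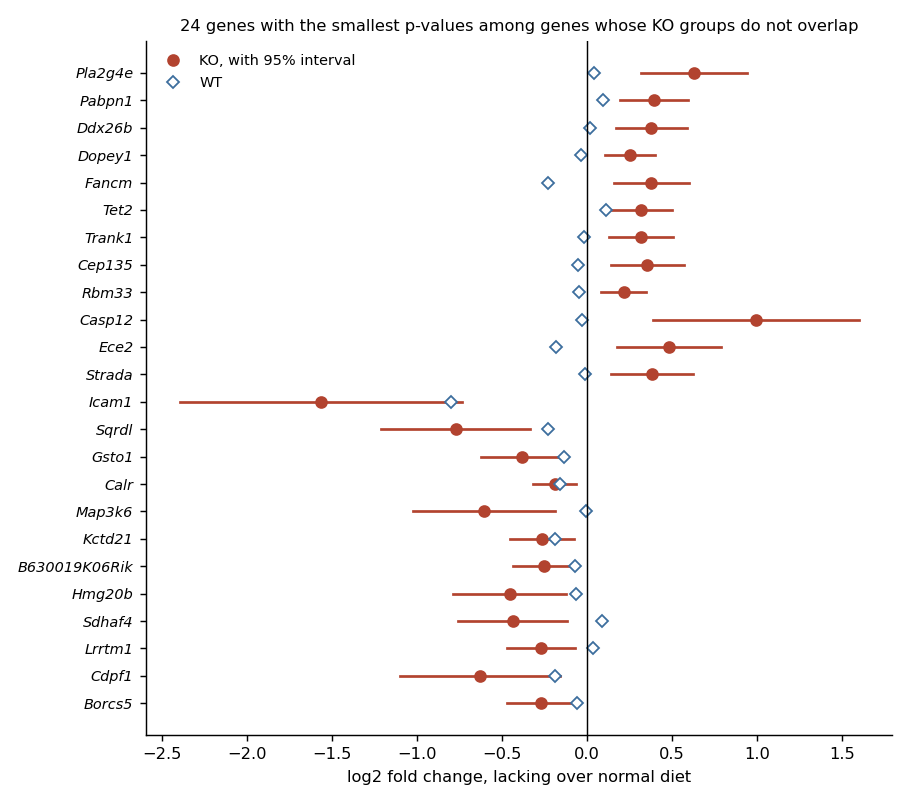
Log2 fold change of the lacking over the normal diet (x axis) for 24 genes (y axis) in prefrontal cortex, as filled circles with 95% intervals for KO and open diamonds for WT. The genes were picked because their KO libraries do not overlap and their p is smallest, so the KO intervals all lie on 1 side of 0. That choice also favours large differences, so the KO sizes may be too large. The WT values lie between -0.23 and 0.11 for the higher genes, and below 0 for 10 of the 12 lower ones.

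The gene with the strongest call in any fit was Atp11b, which encodes a phospholipid flippase (chromosome 3, GRCm38, 35754106 to 35856276). It was at 259, 221, 235, 231 and 256 CPM on the lacking diet and at 162, 157, 232, 184 and 181 CPM on the normal diet. Library 368 alone, at 232 CPM, lay among the lacking libraries. With all 10 libraries the log2 fold change was 0.39 (SE 0.09) and the adjusted p 0.911; without 368 it was 0.50 and the adjusted p 0.0487, the only call in any fit leaving out 1 library. Of the other fits leaving out 1 library, the one without 242 had the lowest adjusted p of any gene, 0.0803. With both 339 and 368 left out 0 genes passed, with 723 at an unadjusted p under 0.05.

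Genes of VB6 handling and of the enzymes that use PLP had medians close to that of all genes. Of 6 genes of VB6 salvage and transport that were tested, 0 had an unadjusted p under 0.05, and their median log2 fold change was 0.02, beside -0.0012 for all genes. Pdxk, the kinase that phosphorylates dietary VB6 forms, was at 114, 129, 121, 124 and 116 CPM on the lacking diet and at 120, 116, 116, 126 and 131 CPM on the normal diet. The groups overlapped throughout, and the 95% interval of the log2 fold change ran from -0.14 to 0.12.

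Of 51 genes for PLP-dependent enzymes of amino acid and neurotransmitter metabolism, 39 were tested. Their median log2 fold change was 0.0012, 19 of 39 were below 0, and 27 of 39 had a 95% interval within 1.5-fold. Gad1, a glutamate decarboxylase gene, was at 299, 310, 312, 298 and 323 CPM against 327, 320, 313, 313 and 300 CPM, with a 95% interval of -0.16 to 0.10. Gad2 had an interval of -0.20 to 0.12, the GABA transaminase gene Abat -0.16 to 0.13, and the serine racemase gene Srr -0.20 to 0.05. One of the 39, Cth, had an unadjusted p under 0.05, beside 5.19% of all genes.

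Cth encodes cystathionine gamma-lyase, the PLP enzyme that ends transsulfuration and releases cysteine. It was at 0.931, 0.788, 0.816, 0.427 and 1.17 CPM on the lacking diet and at 1.62, 0.652, 1.35, 2.56 and 1.45 CPM on the normal diet. Library 268 lay among the lacking libraries and 381 was highest. The log2 fold change was -0.83 (SE 0.36), with an unadjusted p of 0.0284 and an adjusted p of 0.941, in a gene of few counts. Its partner Cbs, cystathionine beta-synthase, had a 95% interval of -0.29 to 0.33. Genes that clear methylglyoxal and other dicarbonyls, 14 tested, had 0 members at an unadjusted p under 0.05 and a median of -0.0097. Hagh, glyoxalase II, the next enzyme after the missing glyoxalase I, had a 95% interval of -0.27 to 0.13.

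Of the 35 gene lists examined, the one with its median farthest from 0 was the immediate early genes, transcription factors and signalling genes that neurons switch on soon after activity. Of 25 tested, 24 had a log2 fold change below 0 on the lacking diet, where 50.5% of all genes did. The median was -0.24, and 5 of 25 had an unadjusted p under 0.05, all lower, beside 2.34% of all genes. None had an adjusted p under 0.05 and in none were the groups apart. The upstream sequences of the 4 with the smallest p are shown because activity-dependent transcription of this family is known to run in part through cAMP response elements (CRE), bound by CREB. RefSeq (GRCm38.p6) promoters were matched for 19 of the 25. These are the 250 bases before a RefSeq transcript start, 5′ to 3′ on the strand of the gene and the first listed where RefSeq has several (4 of the 19), with the CRE (TGACGTCA) and its core (TGACG or CGTCA) in capitals:

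Dusp1, chr17:26508473-26508722, minus strand: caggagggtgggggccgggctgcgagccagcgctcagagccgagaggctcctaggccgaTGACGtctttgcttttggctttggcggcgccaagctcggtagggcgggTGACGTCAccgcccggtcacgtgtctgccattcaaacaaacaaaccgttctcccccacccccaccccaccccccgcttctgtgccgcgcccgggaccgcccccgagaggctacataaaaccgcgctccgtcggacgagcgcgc

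Egr4, chr6:85513590-85513839, minus strand: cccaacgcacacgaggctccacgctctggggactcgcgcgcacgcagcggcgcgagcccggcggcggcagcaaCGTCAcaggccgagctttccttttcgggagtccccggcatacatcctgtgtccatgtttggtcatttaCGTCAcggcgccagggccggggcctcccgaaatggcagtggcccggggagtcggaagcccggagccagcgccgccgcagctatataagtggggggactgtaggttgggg

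Btg2, chr1:134079156-134079405, minus strand: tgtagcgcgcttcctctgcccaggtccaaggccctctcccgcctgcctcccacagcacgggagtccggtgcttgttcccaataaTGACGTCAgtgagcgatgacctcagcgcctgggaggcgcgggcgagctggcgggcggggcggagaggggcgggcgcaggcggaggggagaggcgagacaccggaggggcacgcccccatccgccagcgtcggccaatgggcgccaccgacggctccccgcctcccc

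Junb, chr8:84978749-84978998, minus strand: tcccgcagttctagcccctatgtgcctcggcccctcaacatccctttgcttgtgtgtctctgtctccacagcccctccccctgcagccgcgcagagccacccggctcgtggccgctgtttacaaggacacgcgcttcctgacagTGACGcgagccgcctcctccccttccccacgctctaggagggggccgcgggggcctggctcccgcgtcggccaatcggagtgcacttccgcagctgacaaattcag

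The full CRE was in 2 of these 19 windows, Dusp1 and Btg2 (10.5%), and in 2.8% of the 10182 tested genes with a promoter of that length. At least 1 core, on either strand and counting those inside a full CRE, was in 12 of 19 (63.2%), and in 27% of the 10182. When a gene counted if any of its listed promoters held a core, Egr2 (5 promoters) and Bdnf (7) were added, for 14 of 19 (73.7%) against 30.3%. A CArG box, the site of serum response factor, was in 0 of the 19 windows, against 1.1%. At so low a share, 0 of 19 does not set these genes apart from others. Bases farther upstream and listed genes without a matched promoter were not searched. Over all listed promoters it was in 1 of 19 (5.26%, Egr2), against 1.37%. The RefSeq start of Dusp1 lies inside the longer span that GENCODE gives the gene. These matches are descriptions of the letters in those windows.

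Dusp1, a phosphatase gene that shuts off MAP kinases (chromosome 17, GRCm38, 26505590 to 26562128), was at 13.3, 19.3, 24.2, 18.0 and 30.2 CPM in lacking libraries 242, 244, 325, 339 and 452, and at 48.0, 47.9, 16.4, 33.1 and 37.2 CPM in normal libraries 267, 268, 368, 381 and 390. 4 of the 5 normal libraries lay above all lacking ones, and 368 lay near the bottom. The log2 fold change was -0.80 (SE 0.25), with an unadjusted p of 0.00345. Egr4, a zinc finger factor gene, was at 6.59, 7.68, 5.08, 6.06 and 10.2 CPM against 14.1, 12.4, 8.78, 11.2 and 9.96 CPM. Only 452 among the lacking libraries reached the range of the normal ones. Its log2 fold change was -0.65 (SE 0.23) in KO and 0.22 in WT, and the difference had an unadjusted p of 0.0120 and an adjusted p of 0.99964.

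Junb, an AP-1 subunit gene, was at 19.0, 22.7, 18.6, 30.1 and 32.9 CPM against 45.0, 42.1, 21.7, 32.6 and 33.6 CPM, a log2 fold change of -0.50 (SE 0.23). Btg2, an antiproliferative gene, was at 12.5, 15.6, 10.5, 16.6 and 17.3 CPM against 22.9, 22.4, 11.2, 18.4 and 26.3 CPM (-0.48, SE 0.21). In both genes 368 was the lowest normal library and the other 4 normal libraries lay above 4 or more of the 5 lacking ones. Arc, whose product traffics glutamate receptors at active synapses, spread widest, at 33.3 to 130 CPM against 54.3 to 216 CPM, and its 95% interval ran from -1.51 to 0.06. Fos (-0.81 to 0.34), Npas4 (-0.65 to 0.04) and Bdnf (-0.39 to 0.16), a growth factor gene, had intervals that held 0 as well. Inhba was the 1 member above 0 (0.06).

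Over the 25 genes, the mean log2 CPM was 4.52, 4.73, 4.79, 4.92 and 5.25 in the lacking libraries and 5.27, 5.35, 4.76, 5.07 and 5.22 in the normal ones. The groups thus overlapped through 452, which was as high as normal libraries, and 368, which was as low as lacking ones. Leaving out each library in turn kept the median below 0, between -0.35 (without 452) and -0.16 (without 242); without 339 it was -0.28 and without 368 -0.33. Between 20 and 25 of the genes were below 0 in those fits. In WT the median of the same genes was 0.04, with 10 of 25 below 0, and in KO striatum and hippocampus, from the same mice, -0.21 and -0.07. No difference between genotypes or regions reached the threshold for any of them. In bulk tissue, fewer cells of a type and less RNA per cell cannot be told apart.

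**Figure D3:**
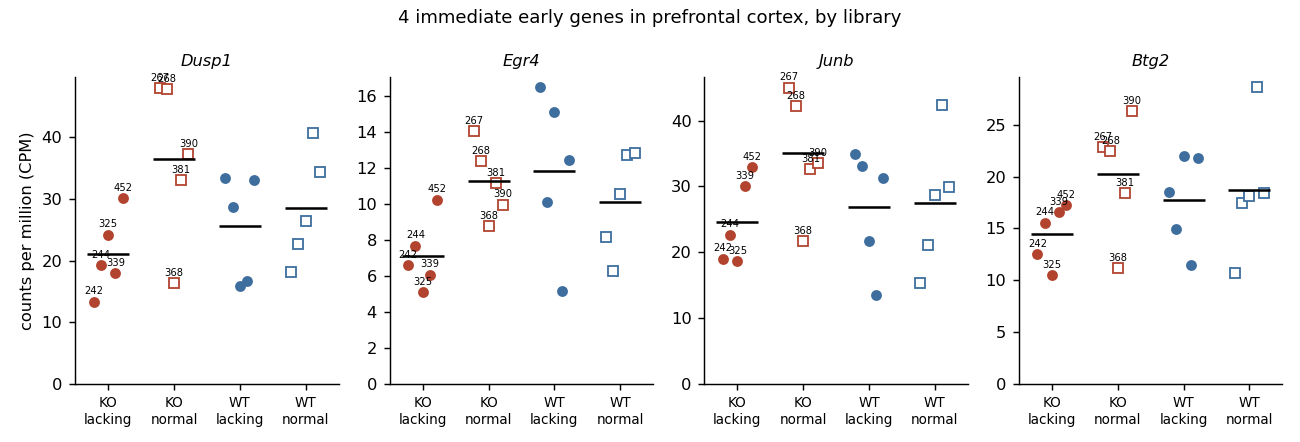
TMM-scaled CPM (y axis, from 0) of Dusp1, Egr4, Junb and Btg2 in the 20 prefrontal libraries, 5 per group (x axis), with KO libraries labelled by mouse number, filled circles for the lacking and open squares for the normal diet, and bars at group means. In KO the normal means are higher in all 4 genes while library 368 sits at 16.4, 8.78, 21.7 and 11.2 CPM, within the range of the lacking libraries.

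Chaperone genes lay on the same side of 0, by smaller amounts. Of 17 heat shock genes tested, 16 were below 0 in KO, with a median log2 fold change of -0.08 and 2 at an unadjusted p under 0.05, both lower, beside 2.34% of all genes. In KO striatum, from the same mice, 17 of 18 were below 0, with a median of -0.15 and 5 lower at that level. Of the 13223 genes tested in prefrontal cortex, 48.9% were below 0 in KO striatum and 130 were lower at that level. KO hippocampus, also from these mice, had 10 of 18 below 0, where 50.1% of all genes were. The median there was -0.02, with 2 lower at that level, beside 401 of those 13223 genes. Hsp90ab1, a cytosolic HSP90 gene, was at 1439, 1360, 1349, 1413 and 1385 CPM on the lacking diet and at 1468, 1597, 1504, 1466 and 1481 CPM on the normal diet, so its groups were apart at a log2 fold change of -0.11 (SE 0.05, adjusted p 0.941). Hspa1b, an inducible HSP70 gene, was at 2.40 to 4.93 against 4.20 to 8.03 CPM (-0.51); 55.8% of its 75-base stretches also occur in another gene, so its reads are uncertain. The list's median was -0.04 in WT. Over the fits leaving out 1 library it ran from -0.12 to -0.05.

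In the list of amino acid and unfolded protein stress genes, 21 tested, the median was -0.09 and 3 were at an unadjusted p under 0.05, all lower, beside 2.34% of all genes: Calr, the endoplasmic reticulum chaperone Hspa5 and the transcription factor Xbp1. Hspa5 was at 335, 298, 241, 284 and 363 CPM against 383, 389, 374, 296 and 331 CPM, with overlap through 242, 244 and 452 on one side and 381 and 390 on the other (log2 fold change -0.22, SE 0.10). The members that answer to amino acid shortage had intervals around 0. The median of the list ran from -0.12 (without 268) to -0.06 (without 325) in the fits leaving out 1 library. Atf4 had a 95% interval of -0.20 to 0.17 and Asns, asparagine synthetase, one of -0.14 to 0.16.

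Nuclear genes of the respiratory chain and ATP synthase had a median log2 fold change of -0.08 over 78 genes, 55 of them below 0. An unadjusted p under 0.05 was seen for 9 in the lower direction and 0 in the higher one, beside 2.34% and 2.84% of all genes. Leaving out 1 library moved the median between -0.12 (without 244) and -0.03 (without 325), and without 339 it was -0.07. By complex the medians were -0.05 for 36 genes of complex I, -0.05 for 13 of complexes II and III, -0.12 for 12 of complex IV and -0.07 for 17 of ATP synthase. Cox7a2, a complex IV subunit, was at 71.9, 73.9, 60.7, 69.6 and 68.9 CPM against 78.3, 75.0, 86.1, 79.0 and 74.4 CPM, its groups just apart, with a log2 fold change of -0.19 (SE 0.07). Atp5g3, an ATP synthase subunit, had the lowest value, -0.50 (SE 0.21), from 77.8, 89.0, 65.1, 86.0 and 73.6 CPM against 139, 186, 69.4, 80.7 and 77.7 CPM. That difference lay in libraries 267 and 268, and the other 3 normal libraries were within the lacking range. In WT the median of the 78 genes was -0.005, in KO striatum -0.07 and in KO hippocampus 0.02.

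Over all genes 50.5% were below 0, and 2.34% were lower and 2.84% higher at an unadjusted p under 0.05. Mitochondrial ribosomal protein genes had a median of -0.07, with 57 of 75 below 0 and 4 lower and 0 higher at that level. Cytosolic ribosomal protein genes had a median of -0.02, with 45 of 79 below 0 and 7 lower and 1 higher. Rpl27, of the large cytosolic subunit, had the smallest p of these, at 6.13 to 8.47 against 7.05 to 11.3 CPM (log2 fold change -0.51, SE 0.15); 22.1% of its 75-base stretches occur in other genes. Leaving out 1 library, the mitochondrial median ran from -0.10 (without 244) to -0.05 (without 452) and the cytosolic one from -0.06 (without 244) to 0.0015 (without 325), so the latter did not keep its sign. Genes of glycolysis and the TCA cycle had a median of -0.02 and 0 of 34 at an unadjusted p under 0.05.

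These lists hold short genes, and gene length moved with the diet difference in KO. When genes were ordered by length and cut into 5 groups, the 2648 shortest (255 to 2483 bases) stood lowest. Their median log2 fold change was -0.04 and 60.4% were below 0, beside 50.5% of all genes. At an unadjusted p under 0.05, 116 were lower and 28 higher, beside 2.34% and 2.84% of all genes. In the 2645 longest (7336 to 123179 bases) the median was 0.02, 39.5% were below 0, and 26 were lower and 135 higher. In WT the medians were -0.0065 and 0.0065. In KO striatum they were -0.03 and 0.02, and in KO hippocampus -0.02 and 0.02. The 12 higher genes above had a median length of 7180.5 bases and the 12 lower genes 2731.5, where all genes had 4334.

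Per library, the shortest minus the longest group in median log2(CPM + 0.5), each gene set against its mean of the 10 libraries, was -0.08, 0.14, -0.04, -0.08 and -0.08 in lacking libraries 242, 244, 325, 339 and 452, and 0.05, 0.07, -0.10, 0.09 and 0.07 in 267, 268, 368, 381 and 390. Libraries 244 and 368 lay with the other diet's group. RIN was 8.9, 7.8, 8.5, 8.8 and 8.7 in the lacking libraries and 8.6, 8.8, 8.9, 8.0 and 7.6 in the normal ones, so 244 had the lowest RIN of its group and 368 the highest of its own. The part of RNA integrity in the length pattern was not tested. After a smooth trend on gene length was taken from the fold changes, a step chosen after seeing the data, the respiratory chain median went from -0.08 to -0.0021, complex IV from -0.12 to -0.04 and cytosolic ribosomal genes from -0.02 to 0.04. Immediate early genes went from -0.24 to -0.26 and heat shock genes from -0.08 to -0.10.

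**Figure D4:**
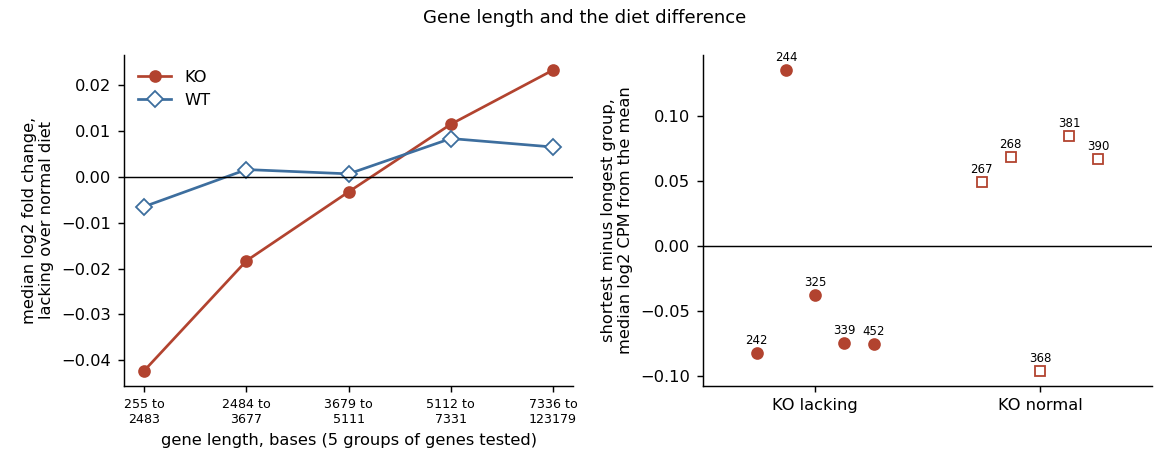
Left, the median log2 fold change of the lacking over the normal diet (y axis) in 5 groups of genes ordered by length (x axis, bases), for KO (filled) and WT (open); the KO line goes from -0.04 to 0.02. Right, for each KO library, the shortest minus the longest group in median log2(CPM + 0.5) from the gene's mean (y axis) by diet (x axis), where 244 at 0.14 and 368 at -0.10 lie opposite to their groups.

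Other neuronal lists had medians closer to 0. Genes of synaptic vesicles and release had a median of -0.06, with 22 of 26 below 0, where 50.5% of all genes were. In WT and in KO striatum 10 of 26 were below 0, and in KO hippocampus 12 of 26. At an unadjusted p under 0.05, 2.34% of all genes were lower and 1 member was, Syn1, synapsin I (log2 fold change -0.20, SE 0.08). Its CPM were 1033, 1232, 1196, 1181 and 1150 against 1500, 1490, 1150, 1304 and 1187, again highest in 267 and 268. Glutamate receptor genes had a median of 0.02 and GABA-A receptor genes -0.06, each with 0 at an unadjusted p under 0.05 and all 22 and 12 intervals within 1.5-fold. Genes of GABA synthesis and transport had a median of -0.03 and 0 of 12 at that level. Npy, a neuropeptide gene of interneurons, was at 63.3, 96.8, 87.0, 91.4 and 82.5 CPM against 129, 155, 82.6, 107 and 99.0 CPM, with only 368 of the normal libraries inside the lacking range. Its log2 fold change was -0.45 (SE 0.15, unadjusted p 0.00452, adjusted p 0.911).

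Cholesterol synthesis genes had a median above 0, at 0.06, and 6 of 23 below 0, where 50.5% of all genes were. The 1 member at an unadjusted p under 0.05, where 2.84% of all genes were higher, was Lss, lanosterol synthase (chromosome 10, GRCm38, 76531588 to 76557138). It was at 44.7, 44.3, 49.3, 55.3 and 43.9 CPM on the lacking diet and at 37.8, 35.3, 43.4, 41.6 and 41.8 CPM on the normal diet. The groups were apart by a narrow margin, 43.9 against 43.4, with a log2 fold change of 0.25 (SE 0.08) in KO and 0.12 in WT. In WT the list's median was 0.09, with 4 of 23 below 0, where 48.3% of all genes were.

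Oxidative stress and glutathione genes were split: 22 of 30 were below 0, where 50.5% of all genes were, and the median was -0.04. Leaving out 1 library moved that median between -0.07 (without 368) and -0.0091 (without 452). An unadjusted p under 0.05 was seen for 3 lower and 2 higher, beside 2.34% and 2.84% of all genes. In WT 15 of 30 were below 0, with a median of -0.00026. Cat, catalase, was at 82.7 ± 4.14 against 97.5 ± 14.9 CPM (SD, n = 5; log2 fold change -0.24), Prdx3, a mitochondrial peroxiredoxin gene, at 24.8 ± 1.96 against 29.7 ± 2.15 (-0.26), and Nfe2l2, the factor NRF2, at 19.4 ± 2.95 against 23.8 ± 4.44 (-0.30). Txnrd2, mitochondrial thioredoxin reductase, was at 6.01 ± 0.976 against 4.41 ± 0.745 (0.45). The clock-controlled factor Hlf was apart, at 356 to 381 against 384 to 449 CPM (-0.17), among 18 clock genes with a median of -0.02.

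**Figure D5:**
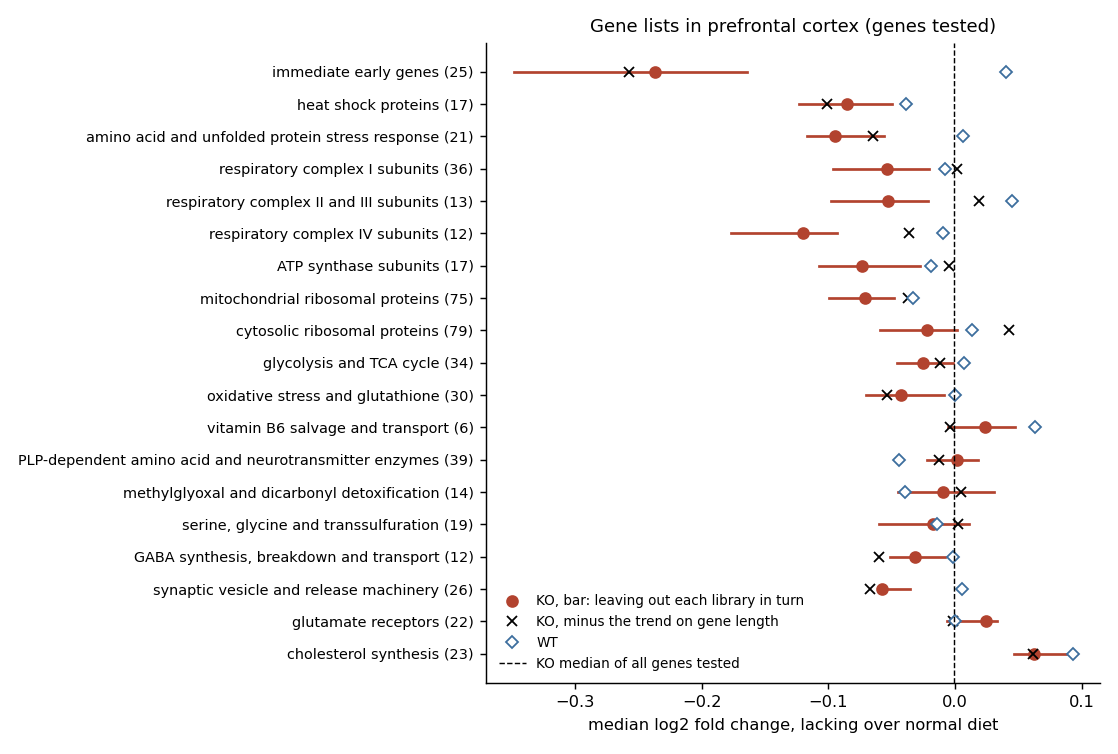
Median log2 fold change of the lacking over the normal diet (x axis) for 19 gene lists (y axis, genes tested in brackets), with filled circles for KO, bars for the range over fits leaving out 1 library, crosses after the trend on gene length was taken off and open diamonds for WT. Immediate early genes lie farthest from the dashed line of all genes, at -0.24 in KO and 0.04 in WT, and the respiratory lists move toward 0 with the length trend removed.

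The summed markers of each cell type overlapped between the diets. Summed CPM of 13 markers of excitatory cortical neurons were 5755 to 6757 in the lacking and 6003 to 6799 in the normal libraries, of 14 interneuron markers 1097 to 1203 and 1158 to 1311, of 14 oligodendrocyte markers 1894 to 3356 and 1929 to 3263, of 13 astrocyte markers 9345 to 11737 and 9887 to 11515, and of 14 microglial markers 447 to 551 and 499 to 539. Medians of these lists lay between -0.06 and 0.03. At an unadjusted p under 0.05 stood 1 of 14 interneuron genes (Npy) and 1 of 13 astrocyte genes (Gfap, -0.28 in KO and -0.26 in WT). So did 1 of 8 oligodendrocyte precursor genes (Sox10, -0.40) and 0 of the excitatory, myelin and microglial lists, beside 5.19% of all genes. For striatal projection neurons, whose markers would show a dissection that reached the striatum, the sums were 466 to 519 and 456 to 514 CPM. Of 11 such genes tested, 1 had an unadjusted p under 0.05, beside 5.19% of all genes. This was Rgs9, at 11.6, 13.1, 15.1, 19.6 and 13.2 CPM against 9.73, 11.5, 10.6, 11.5 and 12.1 CPM, highest in library 339 (log2 fold change 0.39, SE 0.15, adjusted p 0.911). The list's median was -0.11, and -0.03 without 267 and -0.02 without 268. Adora2a was at 0.23 to 1.47 CPM in the 10 libraries against 72.1 to 141 in striatum.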

How the data were processed

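Poly(A) RNA of 3 brain regions of 20 mice was sequenced as single 75-base reads, per the labels' protocols. Raw counts per gene were deposited by the authors for 21999 genes in 60 columns, each matched to a sample by its title, and 0 columns and 0 rows without a gene name were left over. The deposited RPKM were found to be those counts divided by a gene length and by the column total. STAR 2.7.1a, HTSeq 0.9.1 and mm10 are named in the submitters' processing notes; the annotation and the use of strand were not given in the sources used here.

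Counts of the 20 prefrontal libraries were fitted with edgeR 4.0.16 (R 4.3.3), with a mean per group, TMM factors, filterByExpr (minimum count 10, minimum total 15) and two-sided quasi-likelihood F-tests, adjusted by Benjamini-Hochberg over all 13223 genes tested at a threshold of 0.05. Standard errors were derived from the F statistics. Regions were compared in a fit of all 60 libraries (13930 genes). Single measures were compared by exact permutation over all splits of 5 against 5 mice. Nothing states that the 5 mice of a group came from separate litters or cages. No pair of libraries was a copy: the chi-square per gene was between 1.94 and 12.4 in 20 pairs. Depth was 9578705 to 13911503 counts per KO prefrontal library, where 3 counts are 0.216 to 0.313 CPM on library totals.

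Genes were named by rule: Glo1, genes past the threshold in any fit leaving out 1 library, the 12 higher and 12 lower with the smallest p whose KO groups do not overlap at a mean of at least 1 CPM, and up to 4 per list. The members and lists were chosen with earlier results of these data known. Gene positions come from GENCODE M21 (GRCm38).

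Regions of the same mouse are paired by the animal. Deviations from group means correlated at a mean of 0.0904 (striatum) and 0.0472 (hippocampus) between a mouse's prefrontal and other library. In striatum single mice ran from -0.245 (381) to 0.335 (368). Between different mice the means were -0.0221 and -0.0118. Deviations within a group sum to 0, which ties these values to those of the same mouse, so they are no separate baseline. Alternatives were DESeq2 1.42.0, limma 3.58.1 on log2(RPKM + 1), library totals without TMM, no filter, a mean of at least 1 CPM, RIN as covariate, only the compared groups, and leaving out each library. The steps were tested on data simulated gene by gene, without shifts shared by the genes of a library. Of 145 calls among 13146 genes there, 8 were false, and 5.03% of genes had a p under 0.05 when none was changed.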

Additional observations from a re-analysis of the deposited data

Results flagged for a closer look

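Within each KO prefrontal group of 5, the highest or lowest library was checked for a gap to its nearest neighbour above 0.71 of the group's range, which chance gives in about 1 group in 20. Library 339 was such a value for 3 of the measures taken per library: 14496 genes with a count (15411 to 15578 in the others on the lacking diet), 231 genes with a single count (567 to 701) and 312 genes more than 2-fold from their median (22 to 40).

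Of 160 groups of values over the named genes, 11 (6.88%) held such a library, close to the chance rate. Library 268, on the normal diet, did so for Glo1 (0 CPM, others 0.386 to 0.525), Pabpn1 (16.7 CPM, others 20.7 to 21.9), Kctd21 (20.6 CPM, others 17.6 to 18.4), Hmg20b (7.24 CPM, others 6.15 to 6.35) and Tsc22d3, a glucocorticoid-responsive gene (49.2 CPM, others 35.1 to 38.9). Library 368 was low for Slc32a1, the vesicular GABA transporter (13.2 CPM, others 19.0 to 20.9), and for Ndufs8 of complex I (25.7 CPM, others 36.1 to 40.0). Library 267 was high for Flt1, an endothelial receptor gene (163 CPM, others 134 to 137). On the lacking diet, 339 was low for Gsto1 (9.48 CPM, others 14.6 to 16.2), 244 high for Ndufa8 of complex I (52.1 CPM, others 39.3 to 42.0) and 452 high for the collagen gene Col3a1 (5.85 CPM, others 1.96 to 2.66).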

How the results depend on the processing

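The number of genes past the adjusted threshold for diet in KO prefrontal cortex was 0 in 7 of 7 alternatives in method and became 1 only when library 368 was left out. At an unadjusted p under 0.05 the count was 639 to 908 over those alternatives and 388 to 941 when single libraries were left out. The number of genes tested was not the same in all these fits, so 661 is not the number expected in each. Genes whose groups do not overlap numbered 111 without TMM and 99 at a mean of at least 1 CPM; leaving out single libraries gave 144 to 276, and leaving out 339 and 368 together, chosen after seeing the data, gave 402, with fewer libraries that must not overlap. WT and the difference between genotypes gave 0 genes in every alternative run. Their counts at an unadjusted p under 0.05 were 497 and 631 with no filter on low counts, against 300 and 419. More genes were tested without that filter. WT had 461 without its library 241. Differences between regions gave 0 genes with the mouse as a replicate block as well, with 273 genes for striatum and 919 for hippocampus at an unadjusted p under 0.05. No paired analysis was possible for diet itself because each mouse ate 1 diet.

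Leaving out single mice, also added after seeing the data, gave VB6 differences of -65.1 to -60.6 ng/µl, RIN differences of -0.035 to 0.345 and total differences of -899134 to 212428 counts. Glo1, with at most 9 counts per KO prefrontal library, had a log2 fold change of 0.20, which ran from -0.16 to 0.48 without single libraries and was below 0 without 244 (-0.02), 268 (-0.16) and 452 (-0.08); the cause was not tested. Direction held for every other named gene in each alternative. Depth limits genes near 1 CPM, such as Casp12, Icam1 and Cth.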

Other observations

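Col19a1, a collagen gene, had the smallest p-value of all genes tested and was picked out after its values were seen, since its groups overlap. It was at 43.3 ± 8.87 CPM on the lacking and 31.0 ± 2.46 CPM on the normal diet in KO (SD, n = 5), a log2 fold change of 0.48 (SE 0.11) with an edgeR adjusted p of 0.911, and at -0.15 in WT.

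Genes of monoamine receptors and degrading enzymes had a median log2 fold change of 0.00057 in KO. At an unadjusted p under 0.05 stood 1 of 23, beside 5.19% of all genes. This was Htr2c, a serotonin receptor gene, at 53.4, 41.4, 42.7, 57.2 and 51.2 CPM on the lacking diet and 41.3, 38.7, 45.0, 44.9 and 40.4 CPM on the normal diet. Its groups overlapped and its log2 fold change was 0.23 (SE 0.08; edgeR adjusted p 0.911), beside 0.10 in WT. Genes that respond to glucocorticoids and fasting had 0 of 17 at an unadjusted p under 0.05 and a median of -0.07. Blood genes, of which 3 were tested, summed to a median of 20.2 CPM on the lacking and 24.1 CPM on the normal diet, with overlap.

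Across the regions of the same KO mice, the median for respiratory complex IV was -0.12 in prefrontal cortex, -0.08 in striatum and 0.08 in hippocampus. For the amino acid and unfolded protein stress list it was -0.09, -0.10 and -0.12. These medians were not tested against each other.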
